A study of Mus musculus with 16 samples.

Results

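The comparison described here is that of a high-fat diet with normal chow in the livers of mice labelled as liver-specific knockouts of Degs1. It takes the 4 livers whose labels read high-fat diet (HFD) and knockout, and sets them against the 4 livers whose labels read normal chow diet (NCD) and knockout, 8 of the 16 livers sequenced. The members were chosen from the labels alone, and all 14351 genes with enough reads were tested, of 53801 gene IDs in the count table. Total RNA depleted of ribosomal RNA was sequenced from mouse liver with a stranded kit. The other 8 livers came from control mice, 4 on each diet, and enter as a reference and in the estimate of the spread. All livers compared here carry the label of the same deletion, so it is shared by both sides. The promoter that drives the deletion, the part of the gene that it removes, the mouse strain, the age and the length and composition of the diets are details that the sources used here do not give. Each liver has an animal number of its own in the labels, and those of the high-fat knockouts (82, 89, 90 and 92) and chow knockouts (179, 185, 186 and 187) lie in separate ranges. Anything that went with those ranges cannot be told apart from the diet. The high-fat and chow controls also lie in separate ranges of animal number, so the same holds for them. In whole liver, fewer cells of a type and less RNA per cell also cannot be told apart.

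Degs1 encodes the desaturase that places the double bond into dihydroceramide to make ceramide, a sphingolipid that accumulates in liver under a fat load and that interferes with insulin signalling. A fat-rich diet in mice is known to load hepatocytes with triglyceride, to recruit macrophages and to start collagen deposition by stellate cells. The liver of male mice also carries a large set of sex-biased genes that follow the pulses of growth hormone, and SREBP transcription factors set the output of cholesterol and fatty acid synthesis. Nothing in this background is a result of the livers measured here.

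The libraries held 11938596 to 18235419 counts in the chow knockouts and 13572441 to 16559537 in the high-fat knockouts. A count of 3, the level that a count of 0 still allows, corresponds to 0.154 to 0.293 CPM (counts per 1000000 counts of a library, scaled here by TMM) in these 8 libraries. Degs1 (ENSMUSG00000038633, chr1:182275772-182282804 on the minus strand of GRCm38) was at 39.3, 39.3, 37.4 and 35.9 CPM in the chow knockouts and 41.6, 28.1, 26.1 and 29.2 CPM in the high-fat knockouts. In the 8 control livers it was at 60.2 to 101 CPM, above every knockout liver. Degs1 transcript was thus still counted in every knockout liver, and counts over the whole gene do not say how much of it was intact or from which cells it came. Between the diets the knockout values overlapped, and the log2 fold change of -0.28 (edgeR adjusted p = 0.274, SE 0.17) did not pass. The Y-linked gene Ddx3y was between 66.9 and 135 CPM in all 8 knockout livers. Xist, which marks female cells, was at no more than 0.266 CPM in the same livers. The hepatocyte markers summed to 121776 to 143166 CPM on chow and 62232 to 84537 CPM on the high-fat diet, with Alb as the most abundant of them. Of the 8 markers 3 fell, Alb, Fgb and Serpina1a, and the other 5 did not pass. Cyp2e1, Cps1, Trf and Ttr overlapped between the diets.

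A property of the libraries moved with the diet. Sense-intronic transcripts and transcripts of unconfirmed status (TEC) took a part of all counts that, called the intronic share below, was 0.0878, 0.0491, 0.0825 and 0.0463% in the chow knockouts and 0.162, 0.191, 0.165 and 0.166% in the high-fat knockouts. Every high-fat knockout lay above every chow knockout. Malat1, a long noncoding RNA that stays in the nucleus, measured 1360.3, 689.6, 854 and 729.7 CPM on chow and 2949, 3512, 3489 and 3478 CPM on the high-fat diet, again without overlap. Its log2 fold change was 1.89 (edgeR adjusted p = 0.0417, SE 0.56), and the call was lost in 9 of 16 fits that each left out 1 liver. The high-fat controls were spread over the range of both, from 0.0218% to 0.164%. Chow knockout 1 and high-fat control 3 stood apart on the second principal component, at 55.2 and -48.7, with 12.9% of the variance. The part of this property in the gene results was not tested beyond a fit adjusted for its log2 value, whose counts are given with the lists that it moved and whose lost calls are named at the end. Because the share did not overlap between the knockout groups, that fit cannot separate it from the diet.

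**Figure D1:**
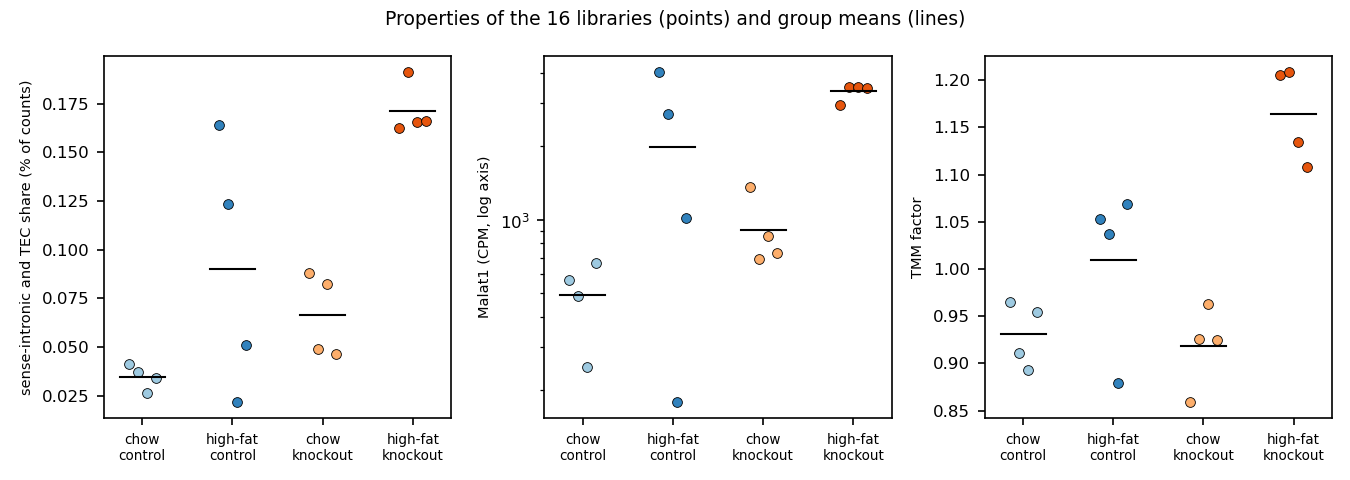
Properties of the 16 libraries by group: the share of counts on sense-intronic and TEC transcripts (percent), Malat1 (CPM, log axis) and the TMM scaling factor. Points are livers and lines are group means. The 4 high-fat knockouts lie above all 4 chow knockouts in each panel, and the high-fat controls spread widely in the first 2.

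Between knockout livers on the high-fat diet and those on chow, 1516 genes differed (10.6% of the 14351 tested, edgeR adjusted p under 0.05). Of these 748 rose (5.21%) and 768 fell (5.35%). Each count of list members below is to be read beside these shares. The groups did not overlap for 12.1% of all genes tested with the high-fat livers higher, and for 12.4% with them lower. The rises were larger than the falls: the median log2 fold change was 1.24 among the genes that rose and -0.64 among those that fell, and 491 rises against 149 falls reached 1. Genes that rose had a median log2 CPM of 2.25 and those that fell 5.72, with 3.52 over all genes tested. Protein-coding genes made up 76.2% of the rises, 96.7% of the falls and 87.8% of all genes, and 56 of the rises but 0 of the falls were TEC transcripts. The median GC content was 51.6% for the rises and 44.4% for the falls.

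The number of genes called depended on single livers. Of the genes called, 214 rose and 183 fell in each of the 16 fits that left out 1 liver, and 104 and 104 in all 29 alternative fits. The 1516 calls became 465 without high-fat knockout 2, 535 without chow knockout 2, 708 without high-fat knockout 1, 758 without chow knockout 4 and 803 without high-fat knockout 3. They became 2914 without high-fat control 3, which enters through the shared spread. With upper-quartile scaling the median of all genes moved from 0.02 to 0.12, and 1028 rose and 447 fell, so that 69.7% of the calls were rises against 49.3%. Of the 125 genes with a call in knockouts whose fold change is printed here, 16 lost it in at least 1 of those 16 fits, as given where each is described. Called genes named without a fold change, such as Oas1g, Oas1a, Pdgfrb, Cygb and G6pc3, are outside this count.

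**Figure D2:**
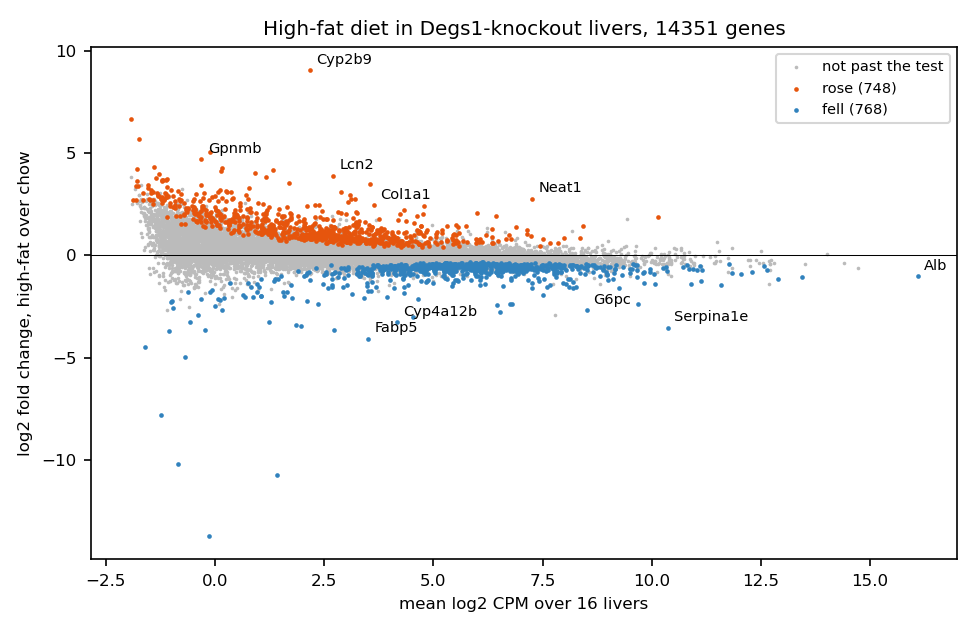
Mean level (log2 CPM over 16 livers, x axis) against the log2 fold change of high-fat over chow in knockout livers (y axis) for 14351 genes. Orange points rose (748), blue points fell (768) and grey points did not pass. Rises lie mostly among genes of low to middle abundance, and falls extend to the most abundant genes, such as Alb.

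Most of the listed genes with higher expression in male than in female mouse liver fell. Of 26 such genes listed, all of them tested, 20 fell and the other 6 did not pass, where 5.35% of all genes fell, with a median log2 fold change of -1.36 against 0.02 over all genes. The count was 13 with high-fat knockout 2 left out, and the median ran from -1.46 to -1.25 over all alternative fits. Serpina1e, an alpha-1-antitrypsin paralog with male-biased expression, stood at 4319.9, 6489, 3497 and 5158 CPM in the chow knockouts, against 302, 190.0, 975 and 215 CPM in the high-fat knockouts. Serpina1e fell by 3.53 on the log2 scale (edgeR adjusted p = 0.0043, SE 0.62), with no overlap between the groups. Cyp4a12a, a male-biased cytochrome P450 that hydroxylates the terminal carbon of fatty acids, measured 252, 128, 154 and 159 CPM in the chow knockouts and 31.9, 23.6, 26.4 and 47.2 CPM in the high-fat ones. Cyp4a12a fell by 2.43 on the log2 scale (edgeR adjusted p = 1.67e-04, SE 0.26), all 4 high-fat values lying below all 4 chow values. Cyp4a12b, its neighbouring paralog, was at 98.8, 34.3, 36.3 and 27.1 CPM in the 4 chow knockouts and at 2.81, 2.21, 10.3 and 4.86 CPM in the 4 high-fat knockouts. Cyp4a12b fell by 3.27 on the log2 scale (edgeR adjusted p = 0.00311, SE 0.55), each high-fat liver being below every chow liver. Slco1a1, an organic anion transporter of the sinusoidal membrane, fell by 1.59 on the log2 scale (edgeR adjusted p = 0.00525, SE 0.30), with means of 1077 ± 89.9 CPM on chow and 358 ± 195 CPM on the high-fat diet (SD, n = 4 each). The level of Cyp7b1, an oxysterol hydroxylase of the alternative bile acid pathway, was 469 ± 56.4 CPM in the chow knockouts and 162 ± 92.1 CPM in the high-fat knockouts (SD, n = 4 each), a log2 fold change of -1.54 (edgeR adjusted p = 0.00696, SE 0.31). Ugt2b38, a glucuronosyltransferase, fell from 17.9 ± 10.1 to 1.62 ± 2.07 CPM (SD, n = 4 each), or by 3.44 on the log2 scale (edgeR adjusted p = 0.00895, SE 0.72). Moxd1, which resembles dopamine monooxygenase, was at 5.56, 0.0592, 0.906 and 0.478 CPM on chow and had 0 counts in all 4 high-fat knockouts. With every high-fat liver at 0 the fitted fold change of Moxd1 depends on the prior count and gives no bound, and the call was lost in 4 of the 16 fits.

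Genes of the major urinary proteins, pheromone carriers secreted by the male liver, were also among the falls. Of the 22 Mup genes listed 20 were tested, 8 fell and the other 12 did not pass, with a median of -1.33. The count of falls was 5 with high-fat knockout 2 left out. Mup20, the protein darcin, stood at 5427, 5152, 4328 and 5393 CPM in the chow knockouts, against 1863, 1682, 2139 and 1764 CPM in the high-fat knockouts. Mup20 fell by 1.45 on the log2 scale (edgeR adjusted p = 0.00151, SE 0.22), with no overlap between the groups. Mup14 measured 295, 183, 98.9 and 132 CPM in the chow knockouts and 18.1, 20.4, 48.1 and 16.98 CPM in the high-fat ones. Mup14 fell by 2.77 on the log2 scale (edgeR adjusted p = 0.00145, SE 0.41), all 4 high-fat values lying below all 4 chow values. Mup7 fell by 2.39 on the log2 scale (edgeR adjusted p = 0.0106, SE 0.52), with means of 1377 ± 437 CPM on chow and 264 ± 259 CPM on the high-fat diet (SD, n = 4 each). The level of Mup21 was 512 ± 34.2 CPM in the chow knockouts and 168 ± 54.4 CPM in the high-fat knockouts (SD, n = 4 each), a log2 fold change of -1.61 (edgeR adjusted p = 0.00314, SE 0.27). Mup3 fell from 10467 ± 608 to 4696 ± 1198 CPM (SD, n = 4 each), or by 1.16 on the log2 scale (edgeR adjusted p = 0.00708, SE 0.23). Mup genes are near copies of each other, as are Cyp4a12a with Cyp4a12b and the Serpina1 genes, and reads that fit several copies could have been split between them, so their separate values are uncertain.

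Some female-biased genes rose. Of 22 listed 14 were tested, 4 rose and the other 10 did not pass, with a median of 0.68. The count of rises was 1 with chow knockout 2 or 4 or else high-fat knockout 1 left out and 2 with chow knockout 1 or else high-fat knockout 2 left out. Adjusted for the intronic share, 3 rose and 0 fell, with a median of 1.48. Cyp2b9, a female-biased cytochrome P450 at chr7:26173411-26210661 (GRCm38), was at 0.293, 0, 0.302 and 0.0683 CPM in the 4 chow knockouts and at 105, 119.9, 28.3 and 89.6 CPM in the 4 high-fat knockouts. Cyp2b9 rose by 9.04 on the log2 scale (edgeR adjusted p = 3.20e-06, SE 0.71), each high-fat liver being above every chow liver. The fold change against a chow level near the floor of detection depends on the prior count. Cyp17a1, a steroid hydroxylase and lyase, had a log2 fold change of 2.02 (edgeR adjusted p = 0.0195, SE 0.51), and its call was lost in 3 of the 16 fits. In the growth hormone axis itself, 1 of the 17 tested genes rose and 4 fell, where 5.21% of all genes rose and 5.35% fell. The count of falls was 1 with chow knockout 2 or 4 or else high-fat knockout 1 or 2 left out and 2 with chow knockout 3 or else high-fat knockout 3 left out. The fit adjusted for the intronic share called 0 higher and 1 lower, with a median of -0.11. Igf1, the circulating growth factor induced by growth hormone, stood at 603, 671, 573 and 601 CPM in the chow knockouts, against 337, 326, 454 and 379 CPM in the high-fat knockouts. Igf1 fell by 0.71 on the log2 scale (edgeR adjusted p = 0.00439, SE 0.13), with no overlap between the groups. Stat5a, a growth hormone signal transducer, rose by 1.06 on the log2 scale (edgeR adjusted p = 0.00641, SE 0.21), with means of 8.49 ± 2.15 CPM on chow and 17.8 ± 3.09 CPM on the high-fat diet (SD, n = 4 each).

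**Figure D3:**
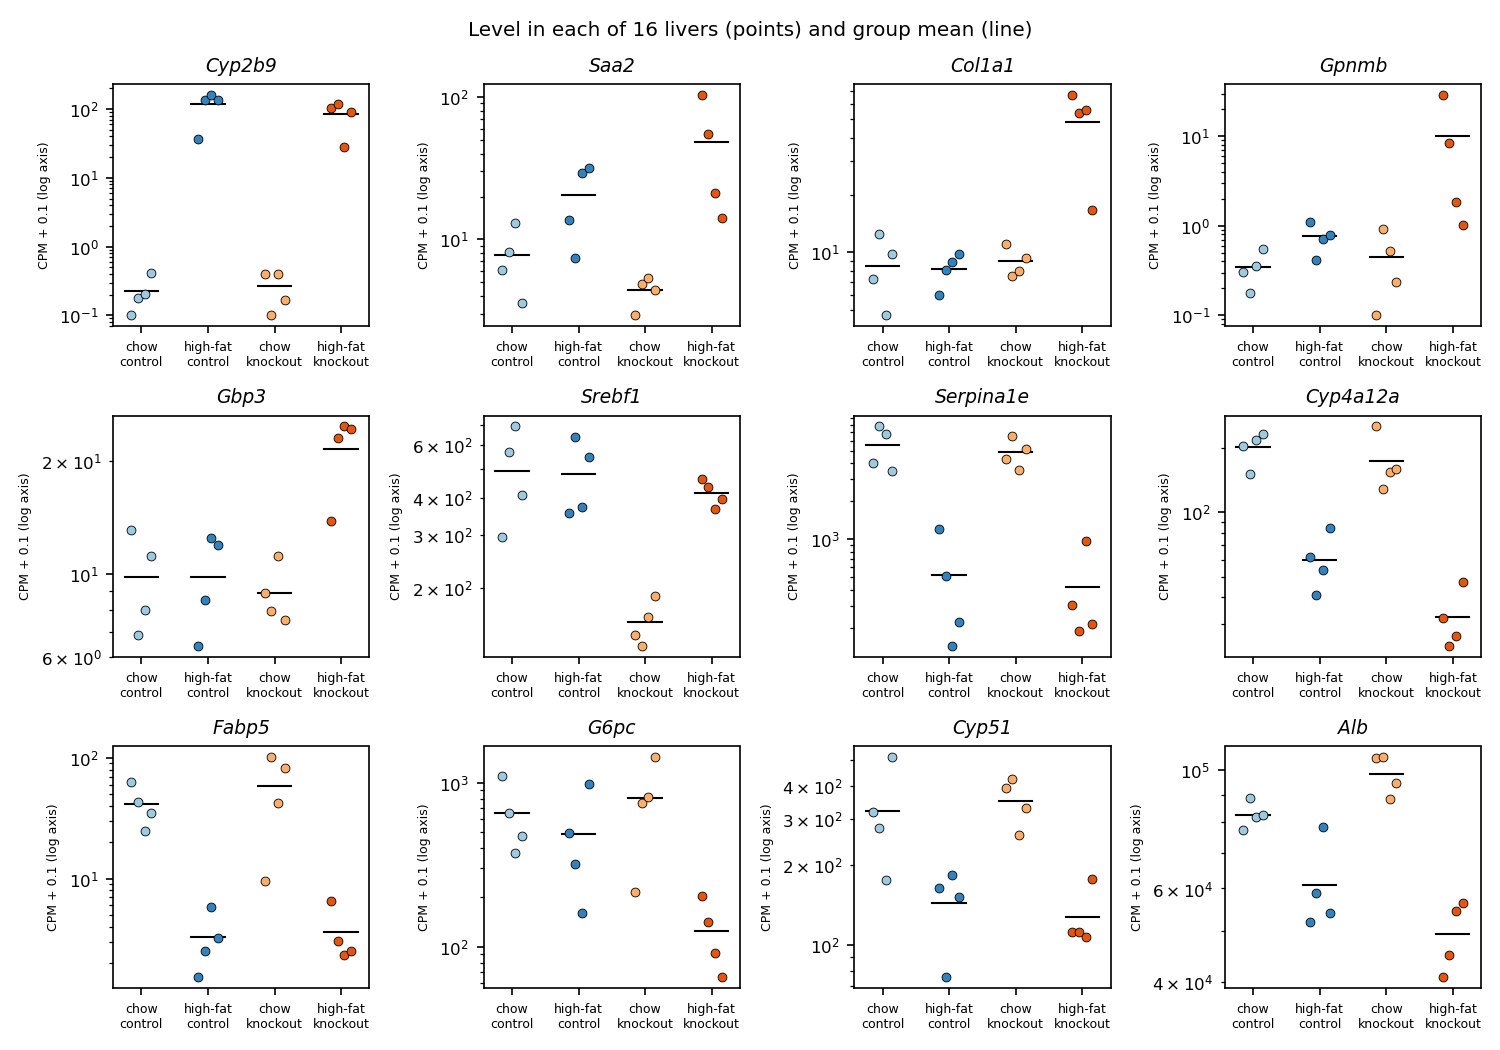
Level of 12 genes (CPM + 0.1, log axis) in each of the 16 livers, by group. Points are livers and lines are group means. Cyp2b9, Saa2, Col1a1, Gpnmb, Gbp3 and Srebf1 are higher in all 4 high-fat knockouts than in all 4 chow knockouts, and Serpina1e, Cyp4a12a, Fabp5, G6pc, Cyp51 and Alb are lower.

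Interferon-responsive genes gave more rises by count than any other list described here, but the lists differ in size. The share was larger in some smaller lists, with 10 of 18 recruited macrophage genes and 4 of 6 nuclear noncoding RNAs. In each of the 16 fits that left out 1 liver 6 interferon genes held their rise, against 7 collagen and matrix genes. Interferon-responsive genes are switched on when type I or II interferon activates transcription factors of the STAT family. Many carry an interferon-stimulated response element (ISRE) near the start of transcription. Of 38 genes listed, all of them tested, 20 rose and the other 18 did not pass, where 5.21% of all genes rose. The median was 0.95, with a range of 0.82 to 1.11 over all alternative fits. In the promoter window of 250 bases before the start, from RefSeq on GRCm38.p6, a pair of GAAA half-sites in the same direction with 2 bases of any kind between them, the core of the ISRE, was found on either strand in 11 of the 14 risen members that had an entry (78.6%). Among all genes tested with an entry the share was 3.33%, among all genes that rose 7.42% and among all that fell 2.36%. The list was drawn up from known interferon targets, so a high share in it says nothing about the diet. The windows of 4 risen members, chosen after the matches were seen, are shown as examples of where the pair lies. The pair is written in capitals (TTTC where it lies on the other strand), and overlapping copies run together in Gbp3 and Irgm1. Other risen members had a match closer to the start, among them Oas1g, where it begins 12 bases before it, and Oas1a, where it begins 14 bases before it. The calls of Oas1g and Oas1a were lost in 3 and 4 of the 16 fits that left out 1 liver.

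The windows, printed 5' to 3' on the strand of the gene, are chr3:142559794-142560043 on the plus strand for Gbp3, chr19:34640639-34640888 on the plus strand for Ifit1, chr11:48871421-48871670 on the minus strand for Irgm1 and chr11:58199306-58199555 on the plus strand for Igtp.
Gbp3: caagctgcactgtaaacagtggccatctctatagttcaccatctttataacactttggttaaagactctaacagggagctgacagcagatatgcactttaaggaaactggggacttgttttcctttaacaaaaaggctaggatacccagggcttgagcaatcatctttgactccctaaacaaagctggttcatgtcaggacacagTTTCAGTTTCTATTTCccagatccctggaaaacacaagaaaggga
Ifit1: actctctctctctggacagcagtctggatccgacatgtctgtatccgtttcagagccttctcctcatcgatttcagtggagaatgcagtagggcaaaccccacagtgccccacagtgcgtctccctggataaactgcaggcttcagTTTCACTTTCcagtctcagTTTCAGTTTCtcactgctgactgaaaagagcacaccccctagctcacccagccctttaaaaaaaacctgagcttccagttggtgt
Irgm1: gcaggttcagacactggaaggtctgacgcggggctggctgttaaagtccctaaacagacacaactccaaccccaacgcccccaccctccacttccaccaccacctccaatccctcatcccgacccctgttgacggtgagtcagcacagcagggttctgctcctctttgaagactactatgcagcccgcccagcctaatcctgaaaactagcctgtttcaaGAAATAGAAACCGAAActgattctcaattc
Igtp: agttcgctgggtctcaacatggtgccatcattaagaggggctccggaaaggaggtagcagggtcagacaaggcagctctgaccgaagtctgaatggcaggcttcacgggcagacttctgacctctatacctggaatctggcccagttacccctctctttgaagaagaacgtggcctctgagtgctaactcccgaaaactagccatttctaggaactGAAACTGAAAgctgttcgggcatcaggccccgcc
The motif nearest to the start begins 39 bases before it in Gbp3, 85 in Ifit1, 24 in Irgm1 and 34 in Igtp. A match describes the letters of the window and is not a measured binding site.

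Gbp3, a guanylate-binding protein that acts against intracellular microbes, measured 8.78, 7.88, 11.1 and 7.44 CPM in the chow knockouts and 13.8, 22.99, 24.6 and 24.3 CPM in the high-fat ones. Gbp3 rose by 1.28 on the log2 scale (edgeR adjusted p = 0.00648, SE 0.25), all 4 high-fat values lying above all 4 chow values. Rnf213, a large interferon-responsive ubiquitin ligase, was at 291, 268, 278 and 293 CPM in the 4 chow knockouts and at 421, 541, 532 and 519 CPM in the 4 high-fat knockouts. Rnf213 rose by 0.83 on the log2 scale (edgeR adjusted p = 0.00488, SE 0.15), each high-fat liver being above every chow liver. The level of Oasl1, an oligoadenylate synthetase-like protein, was 10.4 ± 0.549 CPM in the chow knockouts and 19.1 ± 3.34 CPM in the high-fat knockouts (SD, n = 4 each), a log2 fold change of 0.87 (edgeR adjusted p = 0.00728, SE 0.18). Uba7, the enzyme that activates the ubiquitin-like protein ISG15, rose from 10.1 ± 1.43 to 24.5 ± 1.92 CPM (SD, n = 4 each), or by 1.27 on the log2 scale (edgeR adjusted p = 5.24e-04, SE 0.16). Parp10, an ADP-ribosyltransferase, rose by 1.07 on the log2 scale (edgeR adjusted p = 0.00367, SE 0.18), with means of 14.4 ± 4.05 CPM on chow and 30.3 ± 1.94 CPM on the high-fat diet (SD, n = 4 each). The level of Stat2, a transcription factor of type I interferon signalling, was 38.1 ± 4.05 CPM in the chow knockouts and 55.7 ± 4.496 CPM in the high-fat knockouts (SD, n = 4 each), a log2 fold change of 0.55 (edgeR adjusted p = 0.0165, SE 0.13). Ifi27l2b, an interferon-inducible protein of the Ifi27 family, rose from 3.62 ± 1.24 to 15.4 ± 9.47 CPM (SD, n = 4 each), or by 2.07 on the log2 scale (edgeR adjusted p = 0.0081, SE 0.42). Uba7, Parp10 and Ifi27l2b are outside the list.

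The other members of the interferon list with a printed promoter held their calls in fewer fits. Ifit1, which binds viral RNA, was at 12.1, 7.11, 13.7 and 8.47 CPM on chow and 14.1, 23.8, 23.5 and 26.7 CPM on the high-fat diet, for a log2 fold change of 1.09 (edgeR adjusted p = 0.0288, SE 0.30). Irgm1, an immunity-related GTPase, was at 62.7, 54.1, 52.2 and 55.6 and 73.97, 82.8, 106 and 88.1 CPM, for 0.64 (edgeR adjusted p = 0.0264, SE 0.17). Igtp, a GTPase of the same family, was at 21.7, 28.8, 23.9 and 25.3 and 37.5, 39.4, 84.4 and 46.5 CPM, for 1.06 (edgeR adjusted p = 0.0355, SE 0.30), with high-fat knockout 3 far above the other 3 high-fat livers. In none of the 3 did the groups overlap, and the call was lost in 5, 5 and 7 of the 16 fits. The count of risen interferon genes was 7 with high-fat knockout 2 left out, 8 with chow knockout 2 or 4 left out and 9 with high-fat knockout 3 left out. After adjustment for the intronic share 16 rose, at a median of 1.11. In the controls the list had a median of -0.08 and no call by edgeR, with 0 members higher and 4 lower at an unadjusted p under 0.05.

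Some genes of antigen presentation rose beside them. Of 19 tested, 8 rose and the other 11 did not pass, with a median of 0.69. The count was 3 with chow knockout 2 or else high-fat knockout 2 or 3 left out, 4 with chow knockout 1 or else high-fat knockout 1 left out and 5 with chow knockout 4 left out. Ciita, the transactivator of MHC class II genes, stood at 0.78, 2.19, 2.66 and 2.46 CPM in the chow knockouts, against 9.67, 8.07, 13.4 and 3.86 CPM in the high-fat knockouts. Ciita rose by 2.08 on the log2 scale (edgeR adjusted p = 0.0056, SE 0.39), with no overlap between the groups. Tap1, the peptide transporter of the class I pathway, rose by 0.9 on the log2 scale (edgeR adjusted p = 0.0119, SE 0.20), with means of 25.5 ± 5.76 CPM on chow and 47.5 ± 9.87 CPM on the high-fat diet (SD, n = 4 each). The level of Nlrc5, the class I transactivator, was 21.3 ± 4.64 CPM in the chow knockouts and 44.8 ± 9.02 CPM in the high-fat knockouts (SD, n = 4 each), a log2 fold change of 1.07 (edgeR adjusted p = 0.0127, SE 0.24). The other 5 that rose, H2-Q4, H2-Eb1, H2-Ab1, Cd74 and Psmb9, had log2 fold changes of 0.63, 1.17, 1.13, 0.88 and 0.92, and each of these calls was lost without at least 3 of the livers. In the NF-kB and chemokine list 7 of 24 tested rose, with a median of 0.75, and the count was 3 with chow knockout 2 or else high-fat knockout 1, 2 or 3 left out, 4 with chow control 1 or else chow knockout 1 or 3 left out and 12 with high-fat control 3 left out. Cxcl1, a neutrophil-attracting chemokine, measured 2.73, 1.895, 1.75 and 0.888 CPM in the chow knockouts and 7.23, 7.61, 5.97 and 5.13 CPM in the high-fat ones. Cxcl1 rose by 1.85 on the log2 scale (edgeR adjusted p = 0.00439, SE 0.33), all 4 high-fat values lying above all 4 chow values. Tnfaip3, an inhibitor of NF-kB signalling that NF-kB itself induces, rose from 3.35 ± 0.666 to 9.68 ± 2.48 CPM (SD, n = 4 each), or by 1.52 on the log2 scale (edgeR adjusted p = 0.00482, SE 0.28).

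Markers of recruited and lipid-associated macrophages were among the rises, with wide differences between the high-fat livers. Of 18 tested genes 10 rose and 1 fell, with a median of 1.3. The count of rises was 5 with chow knockout 2 or else high-fat knockout 1 or 2 left out and 6 with chow knockout 1, 3 or 4 or else high-fat knockout 3 left out. Gpnmb, a glycoprotein of lipid-laden macrophages, was at 0, 0.8292, 0.423 and 0.137 CPM in the 4 chow knockouts and at 28.5, 8.33, 1.76 and 0.932 CPM in the 4 high-fat knockouts. Gpnmb rose by 4.68 on the log2 scale (edgeR adjusted p = 0.00652, SE 0.92), each high-fat liver being above every chow liver. Its rise ran from high-fat knockout 4, just above the chow livers, to high-fat knockout 1. Trem2, a lipid receptor of such macrophages, stood at 0.585, 0.533, 0.362 and 0.41 CPM in the chow knockouts, against 7.59, 5.45, 1.49 and 1.46 CPM in the high-fat knockouts. Trem2 rose by 3.08 on the log2 scale (edgeR adjusted p = 0.00911, SE 0.65), with no overlap between the groups. Itgax, the integrin CD11c, measured 1.95, 2.19, 2.36 and 2.32 CPM in the chow knockouts and 14.1, 9.05, 6.61 and 2.197 CPM in the high-fat ones. Itgax rose by 1.85 on the log2 scale (edgeR adjusted p = 0.00825, SE 0.38), with overlap between the groups. High-fat knockout 4 lay within the chow range for Itgax. Ccr2, the chemokine receptor of incoming monocytes, rose by 1.74 on the log2 scale (edgeR adjusted p = 0.00775, SE 0.35), with means of 2.22 ± 0.787 CPM on chow and 7.38 ± 3.07 CPM on the high-fat diet (SD, n = 4 each). The level of Cx3cr1, a chemokine receptor of monocyte-derived cells, was 0.99 ± 0.395 CPM in the chow knockouts and 4.24 ± 1.97 CPM in the high-fat knockouts (SD, n = 4 each), a log2 fold change of 2.11 (edgeR adjusted p = 0.0067, SE 0.42). The member that fell, Fabp5, a fatty acid binding protein also made by hepatocytes, is described with the lipid genes.

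Resident Kupffer cell genes gave 1 call. Of 18 tested 1 fell, the complement gene C6, where 5.35% of all genes fell, and the other 17 did not pass, with a median of 0.16. Under adjustment for the intronic share 1 rose and 1 fell, the median being 0.54. Their summed level was 1128 to 1427 CPM on chow and 928 to 1335 CPM on the high-fat diet. T and NK cell markers, 8 in all, summed to 2.67 to 4.19 CPM on chow and 3.96 to 16.4 CPM on the high-fat diet, and high-fat knockout 3 was the highest, with Cd8a at 0.52, 0.617, 2.98 and 0.866 CPM in high-fat knockouts 1 to 4. This liver was also the highest for Igtp. Neutrophil markers summed to 0.751 to 2.24 and 1.39 to 6.34 CPM, and Ly6g and Elane were at or near 0 in all 8 livers. The 8 fat-cell markers summed to 2133 to 3332 CPM on chow and 1586 to 2339 CPM on the high-fat diet, nearly all of it Car3, at 2503, 2128, 2827 and 3326 CPM in the chow knockouts and 2284, 2243, 1582 and 2302 CPM in the high-fat knockouts. Retn, Adipoq, Lep and Plin1 were at 1.27, 6.59, 5.06 and 4.06 CPM in high-fat knockout 4 and at no more than 0.665 CPM in the other 7 knockout livers. Cidea, by contrast, was highest in high-fat knockout 1, at 10.9, 0.154, 0 and 0.2 CPM in high-fat knockouts 1 to 4. Cfd was at 3.53, 1.65, 0 and 7.32 CPM and Fabp4 at 11.6, 6.94, 4.26 and 13.1 CPM in the same order. The part of these cells in the gene results was not tested.

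Collagen and matrix genes were among the rises in knockout livers on the high-fat diet. Of 44 genes listed 41 were tested, 15 rose and the other 26 did not pass, with a median of 0.52 and a range of 0.39 to 0.63 over all alternative fits. Col1a1, a chain of type I collagen at chr11:94936224-94953042 (GRCm38), was at 10.9, 7.404, 7.91 and 9.22 CPM in the 4 chow knockouts and at 66.5, 53.6, 55.96 and 16.5 CPM in the 4 high-fat knockouts. Col1a1 rose by 2.45 on the log2 scale (edgeR adjusted p = 0.00129, SE 0.35), each high-fat liver being above every chow liver. High-fat knockout 4 was the lowest of the high-fat livers for Col1a1. Col1a2, the other chain of type I collagen, stood at 25.3, 19.1, 19.6 and 24.4 CPM in the chow knockouts, against 82.8, 66.2, 57.3 and 29.1 CPM in the high-fat knockouts. Col1a2 rose by 1.42 on the log2 scale (edgeR adjusted p = 0.00558, SE 0.27), with no overlap between the groups. Col3a1, the chain of type III collagen, measured 58.1, 67.9, 67.6 and 75.9 CPM in the chow knockouts and 233, 181, 149 and 89.96 CPM in the high-fat ones. Col3a1 rose by 1.28 on the log2 scale (edgeR adjusted p = 0.00945, SE 0.27), all 4 high-fat values lying above all 4 chow values. Col6a3, a chain of the microfibrillar collagen VI, rose from 23.4 ± 4.04 to 55.5 ± 18.8 CPM (SD, n = 4 each), or by 1.25 on the log2 scale (edgeR adjusted p = 0.0062, SE 0.24). Col5a2, a fibril-nucleating collagen, rose by 1.25 on the log2 scale (edgeR adjusted p = 0.00762, SE 0.25), with means of 6.21 ± 0.921 CPM on chow and 14.8 ± 4.23 CPM on the high-fat diet (SD, n = 4 each). The level of Adamts2, the protease that trims procollagens, was 7.32 ± 1.94 CPM in the chow knockouts and 15.7 ± 2.57 CPM in the high-fat knockouts (SD, n = 4 each), a log2 fold change of 1.1 (edgeR adjusted p = 0.00511, SE 0.20). Fbn1, the microfibril protein fibrillin-1, rose from 12.2 ± 1.04 to 21.99 ± 4.01 CPM (SD, n = 4 each), or by 0.85 on the log2 scale (edgeR adjusted p = 0.0127, SE 0.19).

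The count of risen matrix genes was 7 with chow knockout 2 or else high-fat knockout 2 left out, 8 with chow knockout 3 or else high-fat knockout 1 left out and 9 with chow knockout 4 left out. It was 7 after adjustment for the intronic share, where 1 fell, and 10 with offsets for length and GC content. Other genes of stellate cells, the main source of collagen in the liver, were a list of their own. Of 17 stellate cell genes tested 2 rose, Pdgfrb and Cygb, where 5.21% of all genes rose, with a median of 0.09. The count was 0 with chow knockout 2 or else high-fat knockout 2 left out and 1 with chow knockout 3 or else high-fat knockout 1 or 3 left out. Once the intronic share was adjusted for, 1 rose and 0 fell, at a median of 0.26. Summed, the stellate list stood at 765 to 807 CPM on chow and 748 to 847 CPM on the high-fat diet. For the sinusoidal endothelium edgeR called none of 22 genes, with a median of -0.01, while 2 were higher and 0 lower at an unadjusted p under 0.05, and DESeq2 called 0 and 0. With the intronic share in the fit, 0 rose and 0 fell, at a median of 0.15.

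Genes of proteins that the liver secretes into plasma were called in both directions. In the acute phase list of 29 tested genes, 6 rose and 6 fell, with a median of -0.02. Adjusted for the intronic share, 8 rose and 4 fell, with a median of 0.15. Saa2, a serum amyloid A protein, was at 2.83, 4.74, 5.26 and 4.302 CPM in the 4 chow knockouts and at 102, 55.1, 20.9 and 14.1 CPM in the 4 high-fat knockouts. Saa2 rose by 3.47 on the log2 scale (edgeR adjusted p = 0.00359, SE 0.59), each high-fat liver being above every chow liver. Lcn2, a siderophore-binding lipocalin, stood at 5.95, 1.95, 0.785 and 0.819 CPM in the chow knockouts, against 74.3, 36.6, 11.9 and 9.92 CPM in the high-fat knockouts. Lcn2 rose by 3.9 on the log2 scale (edgeR adjusted p = 0.00749, SE 0.79), with no overlap between the groups. Orm2, an orosomucoid, measured 5.36, 4.44, 3.44 and 2.73 CPM in the chow knockouts and 55.99, 22.01, 17.9 and 9.06 CPM in the high-fat ones. Orm2 rose by 2.73 on the log2 scale (edgeR adjusted p = 0.0043, SE 0.48), all 4 high-fat values lying above all 4 chow values. Orm3 rose by 4.01 on the log2 scale (edgeR adjusted p = 0.00482, SE 0.73), with means of 0.336 ± 0.289 CPM on chow and 5.18 ± 1.49 CPM on the high-fat diet (SD, n = 4 each). The level of Saa1 was 12.04 ± 1.84 CPM in the chow knockouts and 64.1 ± 42.97 CPM in the high-fat knockouts (SD, n = 4 each), a log2 fold change of 2.42 (edgeR adjusted p = 0.0131, SE 0.55). High-fat knockout 1 had the highest level of Saa2 and Lcn2. Orm and Saa genes are close paralogs and their separate values are uncertain.

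Genes of other plasma proteins were among the falls, some of them members of the acute phase list. Fga, Fgb, Fgg and Serpina1a, given below, and Serpina1e are among the 6 falls of that list. Alb, serum albumin, chosen after its values were seen, was at 105248, 105670.0, 88167 and 94619.9 CPM in the 4 chow knockouts and at 40870.0, 45021, 54537 and 56345 CPM in the 4 high-fat knockouts. Alb fell by 1.0 on the log2 scale (edgeR adjusted p = 0.00265, SE 0.16), each high-fat liver being below every chow liver. Fga, the alpha chain of fibrinogen, fell from 6378 ± 799.6 to 3674 ± 296 CPM (SD, n = 4 each), or by 0.8 on the log2 scale (edgeR adjusted p = 0.0039, SE 0.14). Fgb, its beta chain, fell by 0.9 on the log2 scale (edgeR adjusted p = 0.00439, SE 0.16), with means of 5413 ± 1021 CPM on chow and 2893 ± 366 CPM on the high-fat diet (SD, n = 4 each). The level of Fgg, its gamma chain, was 4598 ± 752 CPM in the chow knockouts and 2517 ± 218 CPM in the high-fat knockouts (SD, n = 4 each), a log2 fold change of -0.87 (edgeR adjusted p = 0.00767, SE 0.18). Serpina1a, alpha-1-antitrypsin, fell from 1110.5 ± 179.8 to 604 ± 113 CPM (SD, n = 4 each), or by 0.88 on the log2 scale (edgeR adjusted p = 0.00444, SE 0.16). Serpina3k, a serine protease inhibitor, fell by 1.07 on the log2 scale (edgeR adjusted p = 0.0101, SE 0.23), with means of 14188 ± 1416 CPM on chow and 6743 ± 1606 CPM on the high-fat diet (SD, n = 4 each). In the list of complement and coagulation factors 12 of 33 tested fell, with a median of -0.41, and the count was 4 with high-fat knockout 2 left out, 5 with high-fat knockout 1 left out and 6 with chow knockout 2 left out. After adjustment for the intronic share 3 fell and 1 rose. C8b, a chain of the terminal complement component C8, stood at 402, 603, 468 and 564 CPM in the chow knockouts, against 100.4, 133, 296 and 172 CPM in the high-fat knockouts. C8b fell by 1.54 on the log2 scale (edgeR adjusted p = 0.00367, SE 0.26), with no overlap between the groups. The level of C8a, another chain of C8, was 1098 ± 108 CPM in the chow knockouts and 524 ± 93.2 CPM in the high-fat knockouts (SD, n = 4 each), a log2 fold change of -1.07 (edgeR adjusted p = 0.00552, SE 0.20). C6, another terminal complement component, fell from 424 ± 59.2 to 172 ± 32.9 CPM (SD, n = 4 each), or by 1.3 on the log2 scale (edgeR adjusted p = 0.00641, SE 0.25). Serpinc1, antithrombin, fell by 0.73 on the log2 scale (edgeR adjusted p = 0.0103, SE 0.16), with means of 2763 ± 238 CPM on chow and 1669 ± 148 CPM on the high-fat diet (SD, n = 4 each). C6, C8a and C8b are also on the male-biased list.

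Some cholesterol synthesis genes fell while Srebf1 rose. Of 25 genes of cholesterol synthesis and transfer, all of them tested, 9 fell and the other 16 did not pass, with a median of -0.71. The count was 4 with chow knockout 2 or else high-fat knockout 1, 2 or 3 left out, 5 with chow knockout 4 left out and 14 with high-fat control 3 left out. Cyp51, lanosterol demethylase, measured 390.4, 422, 261 and 329 CPM in the chow knockouts and 112, 112, 107 and 177 CPM in the high-fat ones. Cyp51 fell by 1.46 on the log2 scale (edgeR adjusted p = 0.00767, SE 0.30), all 4 high-fat values lying below all 4 chow values. Idi1, the isomerase of isoprenoid precursors, was at 28.9, 39.4, 22.8 and 33.4 CPM in the 4 chow knockouts and at 7.95, 10.3, 8.26 and 14.3 CPM in the 4 high-fat knockouts. Idi1 fell by 1.61 on the log2 scale (edgeR adjusted p = 0.0107, SE 0.35), each high-fat liver being below every chow liver. The level of Pmvk, phosphomevalonate kinase, was 74.7 ± 11.6 CPM in the chow knockouts and 31.6 ± 10.4 CPM in the high-fat knockouts (SD, n = 4 each), a log2 fold change of -1.24 (edgeR adjusted p = 0.0107, SE 0.27). Stard4, a cytosolic sterol carrier, fell from 166 ± 35.3 to 87.9 ± 19.6 CPM (SD, n = 4 each), or by 0.92 on the log2 scale (edgeR adjusted p = 0.00641, SE 0.18). After adjustment for the intronic share 2 of the list fell. The sterol motif TCACNCCAC, searched on both strands, was in the promoter window of 0 of the 7 fallen members with an entry and in 1.28% of all genes tested with one. Of the 17 tested members of the whole list with an entry, 1 held it. With a motif this rare, 0 of 7 does not tell the fallen members from other genes.

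Srebf1, which encodes the SREBP-1 transcription factors of fatty acid synthesis, stood at 139, 128, 159.7 and 188 CPM in the chow knockouts, against 462, 434, 367 and 395 CPM in the high-fat knockouts. Srebf1 rose by 1.43 on the log2 scale (edgeR adjusted p = 0.00309, SE 0.24), with no overlap between the groups. In controls its log2 fold change for the diet was -0.04 (edgeR adjusted p = 0.964), and the difference between the genotypes was 1.47 (edgeR unadjusted p = 3.34e-04, adjusted p = 0.211, SE 0.33), which did not pass. Of the 4 groups the chow knockouts were the lowest for Srebf1, with a mean of 154 CPM against 490.4 CPM in chow controls, 479 CPM in high-fat controls and 415 CPM in high-fat knockouts. Among the enzymes of fatty acid synthesis, which SREBP-1 is known to activate, 3 of 18 tested fell and the other 15 did not pass, with a median of -0.47. The count was 0 with chow knockout 2 or 4 or else high-fat knockout 2 or 3 left out, 1 with high-fat knockout 1 left out, 5 with high-fat control 3 left out and 6 with chow knockout 1 left out. The fit adjusted for the intronic share called 0 higher and 1 lower, with a median of -0.16. Mlxipl, which encodes the carbohydrate-responsive factor ChREBP, was at 103, 59.8, 65.1 and 67.1 CPM on chow and 78.2, 129.7, 137 and 123 CPM on the high-fat diet, for 0.67 (edgeR adjusted p = 0.134, SE 0.29), and its direction reversed after adjustment for the intronic share.

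A few genes of lipid uptake and storage rose, in some high-fat livers more than in others, and the lists that hold them gave falls too. Plin4, a coat protein of lipid droplets, measured 4.97, 4.32, 3.32 and 2.12 CPM in the chow knockouts and 57.4, 33.3, 5.38 and 29.3 CPM in the high-fat ones. Plin4 rose by 3.1 on the log2 scale (edgeR adjusted p = 0.00648, SE 0.61), all 4 high-fat values lying above all 4 chow values. Cidec, a droplet fusion protein, was at 0.39, 0.592, 1.09 and 1.64 CPM in the 4 chow knockouts and at 50.7, 8.07, 1.17 and 8.66 CPM in the 4 high-fat knockouts. Cidec rose by 4.17 on the log2 scale (edgeR adjusted p = 0.00893, SE 0.87), with overlap between the groups. Cd36, a fatty acid translocase, stood at 53.1, 32.6, 41.98 and 31.96 CPM in the chow knockouts, against 267, 167, 39.6 and 120.3 CPM in the high-fat knockouts. Cd36 rose by 1.9 on the log2 scale (edgeR adjusted p = 0.0127, SE 0.43), with overlap between the groups. High-fat knockout 3 had the lowest level of all 3 genes and lay within the chow range for Cidec and Cd36, while high-fat knockout 1 had the highest. High-fat knockout 4, in which fat-cell genes were detected, was neither the highest nor the lowest. What fat cells added to the levels of these genes was not tested. Mogat1, an acyltransferase of triglyceride synthesis, rose by 4.1 on the log2 scale (edgeR adjusted p = 0.0103, SE 0.89), with means of 0.141 ± 0.107 CPM on chow and 2.72 ± 3.17 CPM on the high-fat diet (SD, n = 4 each). The level of Gpat3, a glycerol phosphate acyltransferase, was 2.62 ± 0.157 CPM in the chow knockouts and 9.08 ± 3.04 CPM in the high-fat knockouts (SD, n = 4 each), a log2 fold change of 1.79 (edgeR adjusted p = 0.0103, SE 0.39). Mogat1 was at 0, 0.118, 0.242 and 0.205 CPM on chow, at or near the floor, so its fold change depends on the prior count. The lipid droplet list had 2 rises and 1 fall among 13 tested, where 5.21% of all genes rose and 5.35% fell. The rises were 4 with high-fat control 3 or else high-fat knockout 3 left out, and the falls 0 with chow knockout 3 or 4 or else high-fat knockout 1, 2 or 4 left out and 2 with high-fat control 3 left out. Under adjustment for the intronic share 2 rose and 0 fell, the median being 0.48. Triglyceride synthesis and lipolysis had 3 rises and 1 fall among 20 tested, beside the same shares of 5.21% and 5.35% over all genes. Once the intronic share was adjusted for, 2 rose and 0 fell, at a median of 0.06. Ces1d, a carboxylesterase that hydrolyses stored triglyceride, fell from 819 ± 28.9 to 372 ± 31.2 CPM (SD, n = 4 each), or by 1.14 on the log2 scale (edgeR adjusted p = 0.00649, SE 0.22).

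Among genes of fatty acid uptake and binding the largest fall was that of Fabp5. Fabp5, a cytosolic fatty acid binding protein, measured 9.46, 101, 42.6 and 83.2 CPM in the chow knockouts and 6.45, 2.93, 2.24 and 2.397 CPM in the high-fat ones. Fabp5 fell by 4.07 on the log2 scale (edgeR adjusted p = 0.00142, SE 0.59), all 4 high-fat values lying below all 4 chow values. Chow knockout 1 was far below the other 3 chow livers but still above all 4 high-fat livers. Acsl4, an acyl-CoA synthetase with a preference for arachidonate, fell by 0.81 on the log2 scale (edgeR adjusted p = 0.00241, SE 0.13), with means of 127 ± 11.4 CPM on chow and 72.2 ± 4.67 CPM on the high-fat diet (SD, n = 4 each). The level of Acnat2, a peroxisomal acyltransferase that conjugates fatty acids to taurine, was 10.4 ± 4.01 CPM in the chow knockouts and 40 ± 8.19 CPM in the high-fat knockouts (SD, n = 4 each), a log2 fold change of 1.93 (edgeR adjusted p = 4.51e-04, SE 0.23). The uptake and binding list had 2 rises and 5 falls among 18 tested, with a median of -0.4. The rises were 1 with chow knockout 2 or 4 or else high-fat knockout 1 or 2 left out, and the falls 2 with chow knockout 2 or 4 or else high-fat knockout 1 or 2 left out and 3 with chow knockout 3 left out. With the intronic share in the fit, 2 rose and 2 fell, at a median of -0.08. Fatty acid oxidation genes gave 1 rise and 1 fall among 37 tested, where 5.21% of all genes rose and 5.35% fell, with a median of -0.05. The rises were 0 with chow knockout 2, 3 or 4 or else high-fat knockout 1, 2 or 4 left out and 2 with chow knockout 1 or else high-fat control 3 left out, and the falls 0 with chow knockout 2 or 3 or else high-fat knockout 1, 2, 3 or 4 left out, 2 with chow control 4 or else high-fat control 4 left out and 5 with high-fat control 3 left out. Adjusted for the intronic share, 4 rose and 0 fell, with a median of 0.18. Apom, an apolipoprotein that carries sphingosine 1-phosphate in plasma, was among 5 falls and 1 rise in the 27 lipoprotein genes tested, beside 5.35% and 5.21% over all genes. The falls in that list were 1 with chow knockout 4 or else high-fat knockout 1 or 2 left out and 2 with chow knockout 2 or 3 or else high-fat knockout 3 left out, and the rises 0 with chow knockout 1, 2 or 4 or else high-fat knockout 1, 2 or 3 left out. The fit adjusted for the intronic share called 1 higher and 1 lower, with a median of -0.12. Apom was at 199, 255, 232 and 278 CPM in the 4 chow knockouts and at 86.97, 94.8, 132 and 111 CPM in the 4 high-fat knockouts. Apom fell by 1.18 on the log2 scale (edgeR adjusted p = 0.003, SE 0.19), each high-fat liver being below every chow liver.

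Sphingolipid genes, the pathway of the Degs1 enzyme, were a further list. Of 32 listed 27 were tested, 2 rose and 2 fell, where 5.21% of all genes rose and 5.35% fell, with a median of -0.06. The rises were 0 with chow knockout 2, 3 or 4 or else high-fat knockout 1 or 2 left out, 1 with chow control 2 or else high-fat knockout 4 left out and 4 with high-fat control 3 left out, and the falls 0 with chow knockout 4 or else high-fat knockout 1, 2 or 3 left out, 1 with chow knockout 1, 2 or 3 or else high-fat knockout 4 left out and 5 with high-fat control 3 left out. Under adjustment for the intronic share 0 rose and 1 fell, the median being 0.03. Ugcg, the glucosylceramide synthase, was at 29.9, 28.5, 27.2 and 30.4 CPM on chow and 18.3, 15.9, 18.7 and 22.9 CPM on the high-fat diet, for -0.61 (edgeR adjusted p = 0.0216, SE 0.16). Sgms2, a sphingomyelin synthase, had -0.69 (edgeR adjusted p = 0.0323, SE 0.20), and Sgms1, its paralog, had 0.48 (edgeR adjusted p = 0.0446, SE 0.15). Smpd3, a neutral sphingomyelinase, was at 5.07, 0.592, 3.75 and 3.14 CPM and 14.1, 15.1, 5.33 and 7.06 CPM, for 1.76 (edgeR adjusted p = 0.0347, SE 0.50). None of these 4 calls held in all 16 fits that left out 1 liver, the number of fits that lost them being 5, 7, 7 and 5 in the same order.

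Some genes of gluconeogenesis and the fasting response fell. Of 21 tested 5 fell, 1 rose and the other 15 did not pass, with a median of -0.36, and G6pc3 was the rise. The count of rises was 0 with chow knockout 2, 3 or 4 or else high-fat knockout 1, 2, 3 or 4 left out and 2 with high-fat control 3 left out. Once the intronic share was adjusted for, 0 rose and 3 fell, at a median of -0.48. G6pc, the catalytic subunit of glucose 6-phosphatase, stood at 216, 756, 815 and 1428 CPM in the chow knockouts, against 203, 141, 91.7 and 64.9 CPM in the high-fat knockouts. G6pc fell by 2.68 on the log2 scale (edgeR adjusted p = 0.00906, SE 0.56), with no overlap between the groups. In controls the diet gave -0.42 (edgeR adjusted p = 0.76), and the difference between genotypes was -2.27 (edgeR unadjusted p = 0.00799, adjusted p = 0.291, SE 0.76). Pck1, the rate-limiting carboxykinase of gluconeogenesis, measured 3859, 5049, 3433 and 2804 CPM in the chow knockouts and 1633, 1208, 2077 and 1351 CPM in the high-fat ones. Pck1 fell by 1.27 on the log2 scale (edgeR adjusted p = 0.00229, SE 0.20), all 4 high-fat values lying below all 4 chow values. Tat, tyrosine aminotransferase, induced by glucocorticoid and fasting, fell from 1683 ± 504 to 633 ± 190.0 CPM (SD, n = 4 each), or by 1.41 on the log2 scale (edgeR adjusted p = 0.0112, SE 0.31). Sik1, a kinase induced by cyclic AMP, fell by 1.76 on the log2 scale (edgeR adjusted p = 0.014, SE 0.41), with means of 22.5 ± 8.82 CPM on chow and 6.63 ± 1.497 CPM on the high-fat diet (SD, n = 4 each). The level of Crem, a cyclic AMP responsive transcription factor, was 28.3 ± 6.56 CPM in the chow knockouts and 15.5 ± 2.24 CPM in the high-fat knockouts (SD, n = 4 each), a log2 fold change of -0.86 (edgeR adjusted p = 0.00762, SE 0.18).

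Genes of glucose use gave few calls. In the glycolysis and glycogen list of 26 tested genes 3 rose and 2 fell, where 5.21% of all genes rose and 5.35% fell. The rises were 1 with chow knockout 1, 2 or 3 or else high-fat knockout 1 or 2 left out, and the falls 0 with chow knockout 2 or 4 or else high-fat knockout 1, 2, 3 or 4 left out, 1 with chow control 2 or 4 or else chow knockout 3 or else high-fat control 2 or 4 left out and 4 with high-fat control 3 left out. With the intronic share in the fit, 1 rose and 0 fell, at a median of 0.1. Gckr, a regulatory protein of glucose use in hepatocytes, was at 109, 105, 107 and 101 CPM in the 4 chow knockouts and at 187, 209.9, 186 and 230.0 CPM in the 4 high-fat knockouts. Gckr rose by 0.95 on the log2 scale (edgeR adjusted p = 0.00129, SE 0.13), each high-fat liver being above every chow liver. Csad, the decarboxylase of taurine synthesis, stood at 143, 631, 223 and 521 CPM in the chow knockouts, against 132, 66.2, 35.8 and 58.4 CPM in the high-fat knockouts. Csad fell by 2.38 on the log2 scale (edgeR adjusted p = 0.00641, SE 0.46), with no overlap between the groups. Cdh1, E-cadherin, which is enriched in periportal hepatocytes, fell from 59.3 ± 5.45 to 34.8 ± 7.001 CPM (SD, n = 4 each), or by 0.77 on the log2 scale (edgeR adjusted p = 0.0119, SE 0.17). With Pck1 they were among the 5 of 26 periportal and urea cycle genes that fell, a count that was 3 with chow knockout 3 or 4 or else high-fat knockout 1, 2 or 4 left out and 8 with high-fat control 3 left out. Adjusted for the intronic share, 0 rose and 2 fell, with a median of -0.03.

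Bile acid and drug metabolism genes changed in both directions. Among 25 bile acid genes tested of 27 listed, 6 fell and 1 rose, where 5.35% of all genes fell and 5.21% rose. The falls were 3 with high-fat knockout 2 left out and 10 with high-fat control 3 left out. The fit adjusted for the intronic share called 0 higher and 3 lower, with a median of -0.13. Slc10a1, the sodium-dependent bile acid importer, measured 655, 546, 618 and 639 CPM in the chow knockouts and 246, 323, 383 and 429 CPM in the high-fat ones. Slc10a1 fell by 0.83 on the log2 scale (edgeR adjusted p = 0.00796, SE 0.17), all 4 high-fat values lying below all 4 chow values. Hsd3b7, an enzyme of bile acid ring conversion, rose by 1.36 on the log2 scale (edgeR adjusted p = 0.012, SE 0.30), with means of 7.12 ± 3.93 CPM on chow and 18.5 ± 3.08 CPM on the high-fat diet (SD, n = 4 each). Among 35 xenobiotic cytochromes and their regulators tested of 37 listed, 5 rose and 8 fell. The rises were 2 with chow knockout 2 left out, and the falls 4 with high-fat knockout 1 left out and 5 with chow knockout 2 or 4 or else high-fat knockout 2 left out. Under adjustment for the intronic share 3 rose and 2 fell, the median being -0.14. Cyp2c29, an epoxygenase of arachidonate, was at 3221, 2219, 3029.6 and 2578 CPM in the 4 chow knockouts and at 897, 836, 1277 and 1165 CPM in the 4 high-fat knockouts. Cyp2c29 fell by 1.4 on the log2 scale (edgeR adjusted p = 0.00219, SE 0.22), each high-fat liver being below every chow liver. Cyp2c38 stood at 43.9, 26.5, 23.7 and 24.99 CPM in the chow knockouts, against 104, 90.9, 40.3 and 96.2 CPM in the high-fat knockouts. Cyp2c38 rose by 1.48 on the log2 scale (edgeR adjusted p = 0.00578, SE 0.28), with overlap between the groups. Chow knockout 1 lay above high-fat knockout 3 for Cyp2c38. The level of Cyp2c67 was 332 ± 43.3 CPM in the chow knockouts and 112 ± 16.4 CPM in the high-fat knockouts (SD, n = 4 each), a log2 fold change of -1.56 (edgeR adjusted p = 1.67e-04, SE 0.17). Cyp2c37 fell from 333 ± 62.3 to 148 ± 46.1 CPM (SD, n = 4 each), or by 1.17 on the log2 scale (edgeR adjusted p = 0.0113, SE 0.26). Cyp2c55 fell by 2.22 on the log2 scale (edgeR adjusted p = 0.00604, SE 0.42), with means of 10.02 ± 2.698 CPM on chow and 2.14 ± 0.403 CPM on the high-fat diet (SD, n = 4 each). The Cyp2c genes are close paralogs and their separate values are uncertain.

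Cytosolic ribosomal protein genes were among the falls, by modest amounts. Of 67, all of them tested, 34 fell and the other 33 did not pass, with a median of -0.66. The count was 7 with high-fat knockout 2 left out, 8 with chow knockout 2 left out, 11 with high-fat knockout 1 left out, 12 with high-fat knockout 3 left out, 13 with chow knockout 4 left out, 17 with high-fat knockout 4 left out, 21 with chow control 2 left out and 60 with high-fat control 3 left out. After adjustment for the intronic share 2 fell, at a median of -0.18, and with offsets for length and GC content 49 fell. Rpl4, a protein of the large subunit, measured 399.7, 525, 401 and 450.2 CPM in the chow knockouts and 269, 249.5, 303 and 268 CPM in the high-fat ones. Rpl4 fell by 0.71 on the log2 scale (edgeR adjusted p = 0.00488, SE 0.13), all 4 high-fat values lying below all 4 chow values. Rpl23, another protein of the large subunit, was at 96.8, 145, 103 and 112 CPM in the 4 chow knockouts and at 67.9, 61, 64.2 and 62.9 CPM in the 4 high-fat knockouts. Rpl23 fell by 0.83 on the log2 scale (edgeR adjusted p = 0.00314, SE 0.14), each high-fat liver being below every chow liver. The level of Rps6, a phosphorylated protein of the small subunit, was 85.1 ± 22.1 CPM in the chow knockouts and 42.8 ± 2.45 CPM in the high-fat knockouts (SD, n = 4 each), a log2 fold change of -0.99 (edgeR adjusted p = 0.00648, SE 0.19). Ribosomal protein genes have many processed pseudogenes, and reads shared with them make these values uncertain. The share of counts on sense-intronic and TEC transcripts, given above, was higher in the same livers.

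Nuclear respiratory chain genes gave 2 falls among 56 tested, where 5.35% of all genes fell, with a median of -0.31. The count was 0 with chow control 2 or else chow knockout 2 or 4 or else high-fat knockout 1, 2 or 3 left out, 1 with chow control 1 or 3 or else chow knockout 1 or 3 or else high-fat control 1 or 4 or else high-fat knockout 4 left out and 26 with high-fat control 3 left out. Once the intronic share was adjusted for, 0 rose and 0 fell, at a median of 0.05. Without that adjustment, 0 of the respiratory chain genes were higher and 23 lower at an edgeR unadjusted p under 0.05, and DESeq2 called 0 and 5. All high-fat livers were below all chow livers for 32 of the 56, where that held for 12.4% of all genes. Of 13 mitochondrially encoded genes 8 were tested and 2 fell, with a median of -0.99, a count that was 0 with high-fat knockout 2 left out and 1 with chow knockout 1 or 2 or else high-fat knockout 1, 3 or 4 left out. With the intronic share in the fit, 0 rose and 6 fell, at a median of -1.67. The mitochondrial genes not tested, mt-Co2, mt-Co3, mt-Atp6, mt-Atp8 and mt-Nd4l, had at most 4 counts in any library. The cause was not tested, and the values of the mitochondrially encoded genes are uncertain. For the proteasome edgeR called none of 31 genes, with a median of -0.29, while 0 were higher and 8 lower at an unadjusted p under 0.05, and DESeq2 called 0 and 1. Adjusted for the intronic share, 0 rose and 0 fell, with a median of 0.11. For the circadian clock edgeR called none of 20, with a median of -0.06, while 1 were higher and 1 lower at an unadjusted p under 0.05, and DESeq2 called 0 and 0. The fit adjusted for the intronic share called 0 higher and 2 lower, with a median of -0.41.

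Chaperone genes fell in part. In the endoplasmic reticulum list 6 of 26 fell, with a median of -0.36, and the count was 1 with chow knockout 2 or else high-fat knockout 2 or 4 left out, 2 with chow knockout 4 or else high-fat knockout 3 left out and 3 with high-fat control 4 left out. Under adjustment for the intronic share 0 rose and 2 fell, the median being -0.41. Dnajb9, a co-chaperone induced by the IRE1 branch of the unfolded protein response, stood at 54.7, 98.6, 68.7 and 73.8 CPM in the chow knockouts, against 31.97, 29.5, 26.7 and 26.8 CPM in the high-fat knockouts. Dnajb9 fell by 1.36 on the log2 scale (edgeR adjusted p = 0.0043, SE 0.24), with no overlap between the groups. In the heat shock list 5 of 20 fell, with a median of -0.62. The count was 1 with chow knockout 2 or else high-fat knockout 2 left out, 2 with high-fat knockout 3 left out, 3 with chow knockout 4 or else high-fat knockout 1 or 4 left out, 8 with high-fat control 3 left out and 9 with chow knockout 1 left out. Once the intronic share was adjusted for, 0 rose and 2 fell, at a median of -0.4. Hspa1b, an inducible HSP70, which shares most of its sequence with Hspa1a, measured 5.46, 19.8, 11.5 and 16.6 CPM in the chow knockouts and 4.26, 2.06, 1.97 and 1.86 CPM in the high-fat ones. Hspa1b fell by 2.39 on the log2 scale (edgeR adjusted p = 0.0101, SE 0.52), all 4 high-fat values lying below all 4 chow values.

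Some p53 targets rose. Of 25 p53 targets tested of 27 listed, 3 rose, where 5.21% of all genes rose, and the other 22 did not pass, with a median of 0.37. The count was 6 with high-fat control 3 left out. Among them 9 were higher and 0 lower at an unadjusted p under 0.05, and DESeq2 called 7 and 0. The high-fat livers were all above the chow livers for 9 of the 25, where that held for 12.1% of all genes. Gdf15, a stress-induced hormone of the TGF-beta family, was at 3.999, 2.49, 2.48 and 3.07 CPM in the 4 chow knockouts and at 15.5, 27.9, 16.3 and 5.99 CPM in the 4 high-fat knockouts. Gdf15 rose by 2.46 on the log2 scale (edgeR adjusted p = 0.0015, SE 0.37), each high-fat liver being above every chow liver. Phlda3, a p53-induced inhibitor of Akt, stood at 0.683, 0.711, 0.665 and 1.91 CPM in the chow knockouts, against 3.07, 4.73, 4.104 and 6.73 CPM in the high-fat knockouts. Phlda3 rose by 2.21 on the log2 scale (edgeR adjusted p = 0.003, SE 0.36), with no overlap between the groups. Mcm2, a subunit of the replicative helicase, rose from 2.499 ± 0.966 to 6.89 ± 2.22 CPM (SD, n = 4 each), or by 1.44 on the log2 scale (edgeR adjusted p = 0.00775, SE 0.29). Mcm2 was the only gene called among 29 cell cycle genes tested, where 5.21% of all genes rose. The median of the cell cycle genes was 0.47, and the count was 3 with high-fat control 1 left out. With the intronic share in the fit, 4 rose and 0 fell, at a median of 0.89.

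Several genes outside these groups were among those with the largest changes. Lgals1, galectin-1, a carbohydrate-binding protein, measured 7.12, 9.18, 7.01 and 9.902 CPM in the chow knockouts and 71.6, 34.8, 13.6 and 34.03 CPM in the high-fat ones. Lgals1 rose by 2.21 on the log2 scale (edgeR adjusted p = 0.00537, SE 0.42), all 4 high-fat values lying above all 4 chow values. Ctcflos, a noncoding RNA from the strand opposite Ctcfl, which cannot be told apart from Ctcfl without the strand setting, rose by 2.15 on the log2 scale (edgeR adjusted p = 0.0043, SE 0.38), with means of 3.25 ± 1.44 CPM on chow and 14.2 ± 5.26 CPM on the high-fat diet (SD, n = 4 each). The level of Adgrf1, an adhesion G protein-coupled receptor, was 35.6 ± 12.1 CPM in the chow knockouts and 2.83 ± 3.65 CPM in the high-fat knockouts (SD, n = 4 each), a log2 fold change of -3.65 (edgeR adjusted p = 0.00439, SE 0.65). Inhba, the subunit of activin A, fell from 18.6 ± 13.5 to 4.96 ± 0.703 CPM (SD, n = 4 each), or by 1.91 on the log2 scale (edgeR adjusted p = 0.0114, SE 0.42). Neat1, the noncoding RNA that builds paraspeckles in the nucleus, was at 145, 96.1, 86.99 and 90.01 CPM on chow and 673, 791, 537 and 843 CPM on the high-fat diet, for 2.77 (edgeR adjusted p = 0.0164, SE 0.67). All 4 high-fat livers were above all 4 chow livers for Neat1, and the call was lost without chow knockout 2 and after adjustment for the intronic share. Of the 6 nuclear noncoding RNAs tested 4 rose, a count that was 0 with chow knockout 2 left out and 2 with chow knockout 3 or 4 or else high-fat knockout 1, 2 or 4 left out, and none passed by edgeR after that adjustment.

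**Figure D4:**
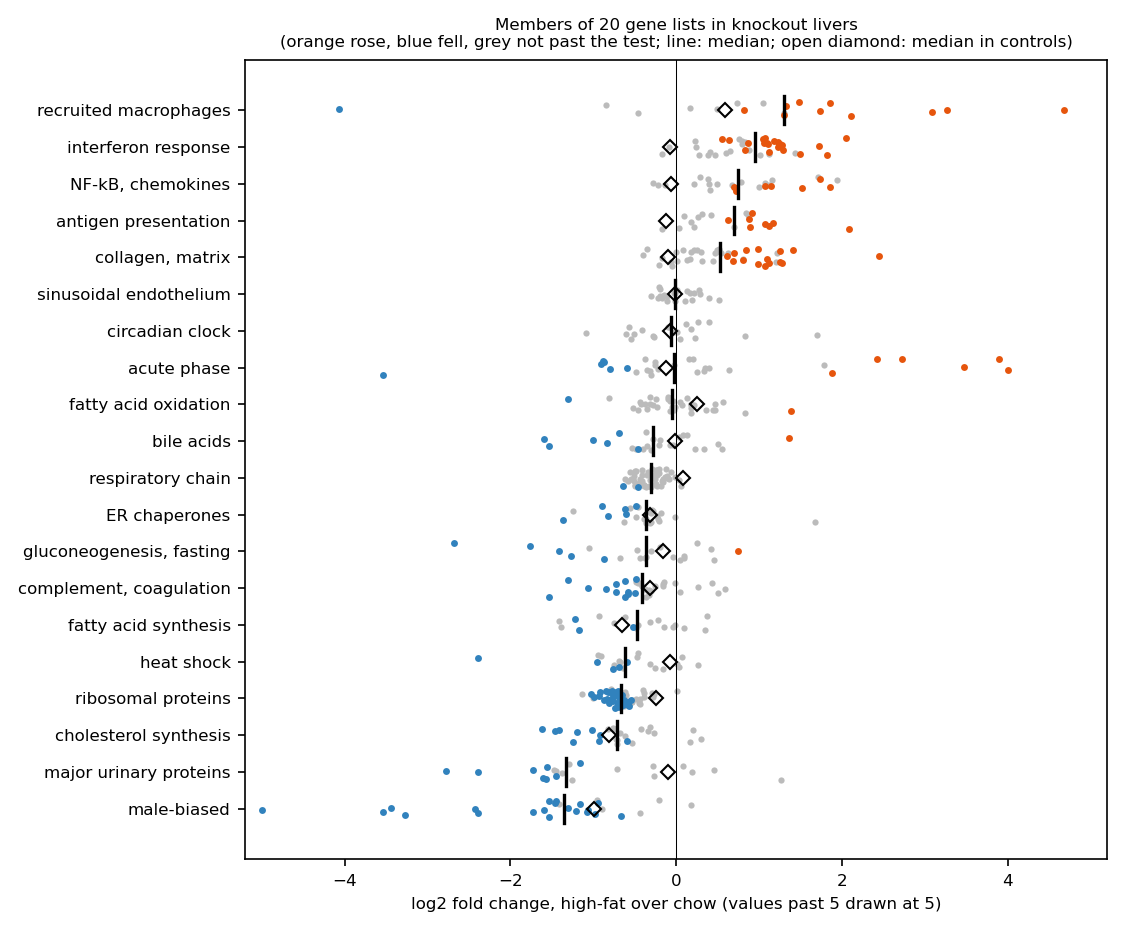
Log2 fold change of high-fat over chow in knockout livers (x axis) for each tested member of 20 gene lists (rows). Orange points rose, blue points fell and grey points did not pass, black lines are list medians in knockouts and open diamonds are list medians in controls. The point drawn at -5 in the male-biased row is Moxd1, fitted at -7.79 against libraries with 0 counts. Knockout and control medians lie close together for cholesterol synthesis and apart for the interferon list (0.95 against -0.08).

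Set beside the same diet contrast in controls, which shares no liver with it, the diet contrast in knockouts held more calls. In controls 262 genes were called (1.83% of those tested): 135 rose (0.941%) and 127 fell (0.885%). High-fat control 3 had an intronic share of 0.0218%, below every chow control, against 0.0512% to 0.164% in the other high-fat controls. The control fold changes, list medians and counts were not refitted without this liver. Of the 748 genes that rose in knockouts 80 also rose in controls, 10.7% of the knockout list and 59.3% of the control list. Of the 768 that fell 70 also fell in controls, 9.11% and 55.1%. No gene was called in opposite directions. The control fold change had the same sign for 606 of the rises (81.02%) and 635 of the falls (82.7%), against 63.04% over all genes tested. The median control fold change was 0.45 for the rises and -0.21 for the falls. The unequal number of calls is not a test of a difference. Animal numbers separate the diets in controls as well. A shared sign therefore does not tell the diet from whatever went with those numbers.

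Named genes are set side by side here as examples, and passing in only 1 genotype is not a test of a difference. The test of that difference, given below, called 0 genes by edgeR. Cyp2b9, Serpina1e, Fabp5, Acnat2 and Csad passed in both genotypes, with control values of 9.61 (edgeR adjusted p = 1.08e-06), -3.4 (edgeR adjusted p = 0.00909), -3.7 (edgeR adjusted p = 0.00557), 2.34 (edgeR adjusted p = 6.56e-05) and -2.15 (edgeR adjusted p = 0.0228). Cholesterol synthesis gave 6 falls in controls at a median of -0.81, and the male-biased list 8 falls at a median of -0.99. Col1a1, Orm2 and Srebf1 had control values near 0, at -0.05 (edgeR adjusted p = 0.966), -0.1 (edgeR adjusted p = 0.946) and -0.04 (edgeR adjusted p = 0.964). The collagen list had a control median of -0.1, and the recruited macrophage list 0.59.

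**Figure D5:**
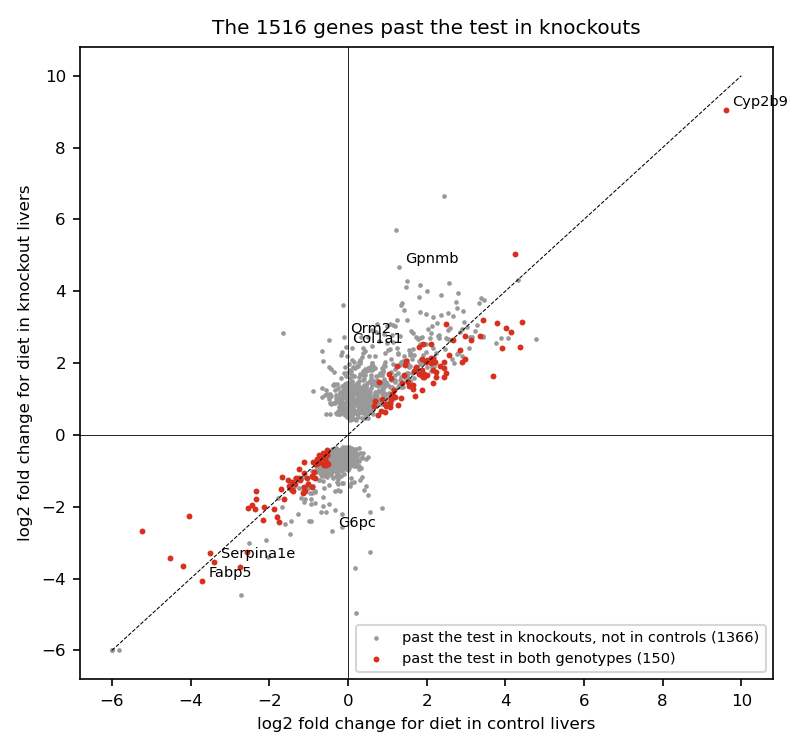
Log2 fold change for the diet in control livers (x axis) against that in knockout livers (y axis) for the 1516 genes called in knockouts. Red points were called in both genotypes (150), grey points in knockouts but not in controls (1366), the dashed line marks equal values, and values below -6 are drawn at -6. Cyp2b9 and Serpina1e lie near the line, and Col1a1 and Orm2 lie near 0 on the x axis.

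The test of the difference itself, the interaction of diet with genotype, called 0 genes (0%) by edgeR, with 1615 at an unadjusted p under 0.05. DESeq2 called 83, limma-voom 0, edgeR without a filter on low counts 259 and limma-voom with quality weights 9. Of the 10 genes with the smallest p, Col1a1 had a difference, knockout minus control on the log2 scale, of 2.5 (edgeR unadjusted p = 6.64e-05, adjusted p = 0.211, SE 0.48). Oasl1 had 1.3 (edgeR unadjusted p = 5.44e-05, adjusted p = 0.211, SE 0.25) and Uba7 1.21 (edgeR unadjusted p = 4.27e-05, adjusted p = 0.211, SE 0.22). Fbxo30, which encodes a ubiquitin ligase subunit, had -1.04 (edgeR unadjusted p = 3.17e-05, adjusted p = 0.211, SE 0.19). Its level was 28.3, 33.1, 29.9 and 30.9 CPM in the chow knockouts and 18.3, 14.1, 15.2 and 19.2 CPM in the high-fat knockouts, where it fell by 0.87 (edgeR adjusted p = 0.00169, SE 0.13). Rnf2, the catalytic subunit of Polycomb complex 1, had -0.9 (edgeR unadjusted p = 1.17e-04, adjusted p = 0.211, SE 0.18), and fell in knockouts by 0.92 (edgeR adjusted p = 0.00129, SE 0.13). Gstm3, a glutathione transferase, had 2.1 (edgeR unadjusted p = 1.30e-04, adjusted p = 0.211, SE 0.43) and did not pass for the diet in knockouts, with 0.56 (edgeR adjusted p = 0.225, SE 0.30).

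After adjustment for the intronic share, 32 of the 125 genes with a call in knockouts and a printed fold change no longer passed. The share did not overlap between the knockout groups, so a call lost or kept in that fit does not tell it from the diet. The genes that no longer passed are named next. These were Malat1, Ugt2b38, Mup3, Cyp17a1, Stat5a, Stat2, Irgm1, Nlrc5, Cd74, Tnfaip3, Col5a2, Fbn1, Fgg, Serpinc1, Idi1, Pmvk, Plin4, Ces1d, Ugcg, Sgms1, Smpd3, G6pc, Sik1, Crem, Cdh1, Hsd3b7, Cyp2c37, Cyp2c55, Rps6, Adgrf1, Inhba and Neat1. Of the other named calls, limma-voom did not make those of Moxd1, H2-Ab1, Gpnmb, Cidec and Mogat1. Length and GC offsets ended that of Fbn1, upper-quartile scaling that of Sgms2, testing without a filter on low counts that of Sgms1, and leaving out both libraries that stood apart those of H2-Ab1 and Cd74.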

How the data were processed

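Total RNA from 16 mouse livers was sequenced after ribosomal RNA depletion, per the labels' protocols. Reads were aligned with STAR 2.5.4a and assigned to genes with featureCounts 1.5.1 on GRCm38, per the submitters' processing notes, and the deposited values are raw counts per gene. The sources used here do not give the strand setting, the handling of reads that fit several genes or the annotation release, so overlapping genes such as Ctcflos and Ctcfl cannot be told apart. Gene names and positions came from GENCODE M21, which held 53706 of the 53801 gene IDs.

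Genes with enough reads were kept by edgeR 4.0.16 (filterByExpr, minimum count 10), scaled by TMM and tested by edgeR's quasi-likelihood test in R 4.3.3, with all 4 groups in 1 fit and Benjamini-Hochberg adjustment over 14351 genes at 0.05. The spread is that between livers of different animals. Each SE printed with an edgeR value is the absolute log2 fold change divided by the square root of the F statistic. It follows from the test and was not estimated separately. Alternatives used DESeq2 1.42.0, limma 3.58.1, other scalings and filters, offsets for length and GC content, a covariate and fewer livers. Pairs of livers within the knockout groups differed by 12.3 to 71.6 times the chi-square that counting noise gives, so none was a repeat deposit. On simulated counts for this comparison over 14232 genes, 58.8% of 97 genes changed by 1 on the log2 scale and 81.8% of 99 changed by 2 were recovered, with 12 false calls.

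Named genes were up to 15 in each direction with the largest change among called genes of a mean log2 CPM of at least 2 whose groups did not overlap, the called or lowest-p members of each list, and 10 genes with the smallest interaction p. Genes known only by number were passed over, some were left out for length, and a few are not reported here. The comparison, the gene lists and the named genes were chosen with earlier results of these data known.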

Additional observations from a re-analysis of the deposited data

Results flagged for a closer look

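A liver was taken to stand apart for a gene where its gap to the nearest of the other 3 was a larger part of the range of the group than Dixon's critical value. Of 266 groups of 4 looked at, which were the 128 genes with a printed fold change and the library properties in both knockout groups, 24 met this. Chance gives about 1 in 20, and genes of 1 liver are not independent. High-fat knockout 1 was the highest of its group for Cidec at 50.7 CPM against 1.17 to 8.66 CPM, Fabp5 at 6.45 CPM against 2.24 to 2.93 CPM and Fbn1 at 27.97 CPM against 19.5 to 20.5 CPM. It was also the highest for Hspa1b at 4.26 CPM against 1.86 to 2.06 CPM, Mogat1 at 7.43 CPM against 0.586 to 1.65 CPM and Tnfaip3 at 13.4 CPM against 8.06 to 8.901 CPM. High-fat knockout 1 was the lowest of its group for Gbp3 at 13.8 CPM against 22.99 to 24.6 CPM and Malat1 at 2949 CPM against 3478 to 3512 CPM. High-fat knockout 3 was the highest of its group for Cyp7b1 at 298 CPM against 96.7 to 128 CPM, Mup14 at 48.1 CPM against 16.98 to 20.4 CPM and Serpina1e at 975 CPM against 190.0 to 302 CPM. It was also the highest for Tap1 at 62.3 CPM against 41.95 to 43.9 CPM. High-fat knockout 4 was the highest of its group for Cyp51 at 177 CPM against 107 to 112 CPM. Chow knockout 1 was the highest of its group for Cyp2c38 at 43.9 CPM against 23.7 to 26.5 CPM, Cyp4a12b at 98.8 CPM against 27.1 to 36.3 CPM and Mlxipl at 103 CPM against 59.8 to 67.1 CPM. It was also the highest for Moxd1 at 5.56 CPM against 0.0592 to 0.906 CPM, Mup7 at 2028 CPM against 1118 to 1225 CPM and Neat1 at 145 CPM against 86.99 to 96.1 CPM. Chow knockout 1 was the lowest of its group for Adgrf1 at 17.7 CPM against 39.4 to 43.1 CPM and Ifi27l2b at 1.76 CPM against 4.17 to 4.29 CPM. Chow knockout 3 was the highest of its group for Mup21 at 563 CPM against 491 to 498 CPM. Chow knockout 4 was the highest of its group for Phlda3 at 1.91 CPM against 0.665 to 0.711 CPM. High-fat knockout 2 had the highest share of counts on sense-intronic and TEC transcripts of its group, at 0.191% against 0.162% to 0.166%. Chow knockout 1 also stood apart on the second principal component, and no cause was tested.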

How the results depend on the processing

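The counts of 748 rises and 768 falls by edgeR depended on the test and on single livers. They were 1177 and 1092 with DESeq2, 1157 and 738 without a filter on low counts, 1028 and 447 with upper-quartile scaling, 2184 and 2161 with limma-voom and quality weights, 368 and 505 after adjustment for the intronic share and 319 and 224 against a fold change of 1.2. With only the 8 knockout livers they were 1431 and 1362, and without chow knockout 1 and high-fat control 3 together 1636 and 1637. Leaving out 1 liver at a time gave 257 to 1422 rises and 195 to 1492 falls, the lowest without chow knockout 2 and high-fat knockout 2 and the highest without high-fat control 3. The other scalings, the stricter filter, limma-voom and the offsets for length and GC content left both counts within 1.5 times. Interaction calls numbered 0 by edgeR, 83 by DESeq2, 259 without a filter and 9 by limma-voom with quality weights, and 0 to 1 with 1 liver left out. The cause of these differences was not tested. Only Malat1, Mlxipl and Degs1 among the genes with a printed fold change changed sign, all after adjustment for the intronic share, to -0.096, -0.077 and 0.026. No paired analysis was possible because the labels number animals, and the replicate numbers within a group were given in accession order and pair nothing.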

Other observations

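Among the genes called in all 29 alternative fits were several outside the lists described above. They were chosen after their values were seen. Gm2a, the activator protein that lysosomes need to break down ganglioside, was at 177, 165, 147 and 169 CPM in the 4 chow knockouts and at 65.03, 67.99, 79.04 and 71.7 CPM in the 4 high-fat knockouts. Gm2a fell by 1.21 on the log2 scale (edgeR adjusted p = 4.51e-04, SE 0.15), each high-fat liver being below every chow liver. Srd5a1, a steroid 5-alpha reductase, stood at 90.1, 92.2, 107 and 86.3 CPM in the chow knockouts, against 38, 33.6, 47.5 and 44.01 CPM in the high-fat knockouts. Srd5a1 fell by 1.2 on the log2 scale (edgeR adjusted p = 4.51e-04, SE 0.15), with no overlap between the groups. Acot11, an acyl-CoA thioesterase, rose by 1.49 on the log2 scale (edgeR adjusted p = 7.59e-04, SE 0.20), with means of 5.37 ± 1.19 CPM on chow and 15.1 ± 1.35 CPM on the high-fat diet (SD, n = 4 each). The level of Ucp2, an uncoupling protein of the inner mitochondrial membrane, was 11.7 ± 1.22 CPM in the chow knockouts and 24.4 ± 3.85 CPM in the high-fat knockouts (SD, n = 4 each), a log2 fold change of 1.06 (edgeR adjusted p = 0.00367, SE 0.18). Abca8a, a lipid transporter of the ABC family, fell from 251 ± 38.3 to 104 ± 30.04 CPM (SD, n = 4 each), or by 1.27 on the log2 scale (edgeR adjusted p = 0.00309, SE 0.21). Nox4, an oxidase that makes hydrogen peroxide, fell by 0.85 on the log2 scale (edgeR adjusted p = 0.00349, SE 0.15), with means of 95.8 ± 9.45 CPM on chow and 52.9 ± 8.23 CPM on the high-fat diet (SD, n = 4 each).

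Signalling and surface proteins were also among them. Gpc1, a heparan sulfate proteoglycan, measured 21.8, 10.96, 11.3 and 18.6 CPM in the chow knockouts and 51.3, 45.3, 31.5 and 42.1 CPM in the high-fat ones. Gpc1 rose by 1.45 on the log2 scale (edgeR adjusted p = 0.00186, SE 0.22), all 4 high-fat values lying above all 4 chow values. The level of Jak3, the kinase of cytokine receptors with the common gamma chain, was 6.45 ± 0.97 CPM in the chow knockouts and 14.2 ± 1.71 CPM in the high-fat knockouts (SD, n = 4 each), a log2 fold change of 1.14 (edgeR adjusted p = 0.00367, SE 0.20). Rasgrp2, an activator of the small GTPase Rap1, rose from 5.69 ± 0.681 to 14.99 ± 3.05 CPM (SD, n = 4 each), or by 1.4 on the log2 scale (edgeR adjusted p = 7.59e-04, SE 0.19). Slco2a1, a prostaglandin transporter, fell by 1.49 on the log2 scale (edgeR adjusted p = 0.00145, SE 0.22), with means of 77.1 ± 8.198 CPM on chow and 27.5 ± 10.9 CPM on the high-fat diet (SD, n = 4 each). The level of Myof, a membrane repair protein, was 6.12 ± 0.329 CPM in the chow knockouts and 15.96 ± 5.84 CPM in the high-fat knockouts (SD, n = 4 each), a log2 fold change of 1.38 (edgeR adjusted p = 0.00214, SE 0.22). Itih5, a hyaluronan-binding protein of the extracellular matrix, fell from 45.5 ± 6.88 to 19.1 ± 5.08 CPM (SD, n = 4 each), or by 1.25 on the log2 scale (edgeR adjusted p = 0.0043, SE 0.22). In controls the diet gave Gm2a -0.85 (edgeR adjusted p = 0.00738), Srd5a1 -1.23 (edgeR adjusted p = 6.56e-04) and Gpc1 1.37 (edgeR adjusted p = 0.0056).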
